A study of Homo sapiens with 4 samples.

Results

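Expression of the genes of human chromosome 13 was followed in chromosomal order in the human hepatocellular carcinoma line HuH7, with and without a knockout of KDM6B. The knockout cells (KO) gave 2 arrays and KDM6B wild-type HuH7 cells (WT) gave 2, all on the Affymetrix Human Genome U133 Plus 2.0 platform. Per the labels, KO cells came from CRISPR/Cas9 with 1 guide, G418 selection and limiting dilution into subclones. The labels do not say whether the 2 KO arrays hold different subclones, whether arrays of a group came from separate cultures, or whether WT cells went through selection. The p-values therefore measure the spread between these arrays, which may be technical, and loss of KDM6B and a difference of the subclones from the parent cells cannot be told apart.

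The platform annotation placed 401 genes on chromosome 13 in the RefSeq gene table, of 19775 genes measured. Of these, 8 genes of other pathways were left out, and 156 of the other 393 had a mean over the 4 arrays at or above 6.19, the median of all genes on the log2 scale. These 156 genes are called the members. They were chosen by chromosome and by that mean, with the brightest probe set standing for each gene. The members nearest the threshold were FLT1 (mean 6.28) and ABHD13 (6.30), and the nearest genes below it were LCP1 (6.17) and MCF2L-AS1 (6.10). The chromosome was taken up with these differences already known, so counts and medians over the members are descriptions and carry no test.

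Chromosome 13 is one of the acrocentric human chromosomes, with its protein-coding genes on the long arm, and it is comparatively poor in genes. It carries RB1, which encodes the retinoblastoma protein that restrains entry into S phase, and the ATP7B gene for the copper pump that is defective in Wilson disease. KDM6B, on chromosome 17, encodes a demethylase that removes methyl groups from lysine 27 of histone H3, a mark set by Polycomb proteins at many developmental genes.

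KDM6B itself read 7.95 and 8.14 in KO and 8.46 and 8.27 in WT on the log2 scale, a difference of -0.32 (SE 0.12, limma adjusted p = 0.235), which was not called. The guide need not lower the mRNA, so this is no check of the labels. All 8 hepatocyte or hepatoma markers, albumin and alpha-fetoprotein among them, were bright, with group means of 10.25 to 13.89 in KO and 10.87 to 13.80 in WT. Of these 8, 2 were called lower in KO, FGB (-0.63, SE 0.12, adjusted p = 0.0386) and SERPINA1 (-0.49, SE 0.08, adjusted p = 0.0261), and 0 higher. Of fibroblast and endothelial markers, 1 of 7 and 1 of 6 reached the brightness threshold. Of 4 leukocyte markers measured, 2 reached it, and the log2 of their summed signal was 9.31 and 9.93 in KO and 11.3 and 10.7 in WT. The bright endothelial marker, PECAM1 (-0.88, adjusted p = 0.0432), and the leukocyte marker LYZ (-1.58, adjusted p = 0.0487) were called lower, and no marker on these lists was called higher. The part of other cell types in the results was not tested.

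Most chromosome 13 members were lower in KO than in WT. The median difference, KO minus WT, was -0.36 on the log2 scale, against -0.03 for the 9727 genes of the same brightness on other chromosomes and 0.01 for all genes. By their group means 125 members (80.1%) were lower and 31 higher, where 47.8% of all genes and 55% of the bright genes elsewhere were lower. The 25th and 75th percentiles of the members were -0.58 and -0.07. In a mass of cells, fewer cells expressing a gene and less RNA per cell cannot be told apart. At an adjusted p under 0.05 in the limma fit of all genes, 33 of the 156 members were called lower (21.2%), where 3.94% of all genes and 6.6% of the bright genes on other chromosomes were. Calls in the other direction were made for 4 members (2.56%), where 3.14% of all genes and 5.28% of the bright genes elsewhere were. The other 119 members did not pass. In either direction 37 members were called (23.7%), where 7.07% of all genes and 11.9% of the bright genes elsewhere were. Both KO arrays lay below both WT arrays for 95 members (60.9%), against 23.5% of all genes and 34.4% of the bright genes elsewhere. Both KO arrays lay above both WT arrays for 15 members (9.62%), against 22.4% and 25.3%.

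Among 23 chromosomes compared at this brightness, chromosome 13 had the lowest median. The next were chromosome 4 at -0.18 and chromosomes 9 and 2 at -0.10 each, and the highest was chromosome 22 at 0.05. The share of genes lower in KO was 80.1% on chromosome 13, against 69.7% on chromosome 4 and 41.4% on chromosome 22. The share called lower was 21.2% on chromosome 13. The next highest were 12.9% on chromosome 4, 12.8% on chromosome 17 and 12.7% on chromosome X, and the lowest was 1.95% on chromosome 19.

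The shift was present in each KO array. Against the mean of WT, the members had a median of -0.36 in KO 1 and -0.29 in KO 2. WT 1 and WT 2 also differed, by a median of 0.16 over the members against 0.04 over the bright genes elsewhere. This gap was not particular to chromosome 13. It was 0.15 over the bright genes of chromosome 4, which had the next lowest KO minus WT median. On the remaining chromosomes it ran from -0.04 (chromosome 22) to 0.11 (chromosome 8). Without WT 1 the median over the members was -0.22, and without WT 2 it was -0.45, so the size of the shift depended on the WT array used and its direction did not. Without KO 1 it was -0.29 and without KO 2 -0.36. Few calls remained without 1 array, in fits with fewer residual degrees of freedom. No member was called lower without KO 1 (0 of 156). ZIC2 was without KO 2 (adjusted p = 0.0448), WASF3 without WT 1 and without WT 2 (0.0412 and 0.0342), and MICU2 without WT 2 (0.0457). KLF5 was called higher without WT 1 and without WT 2 (0.0342 and 0.0341).

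The dimmer genes of the chromosome showed a much smaller shift. The 237 chromosome 13 genes below the threshold had a median difference of 0.00, against 0.04 for dim genes of other chromosomes. Of the 237, 120 (50.6%) were lower in KO, against 39.9% of the dim genes elsewhere. No detection calls were used, so dim values could not be told from background. This holds for 7 members whose KO mean lay below the threshold and which passed it through their WT values alone, while no member (0 of 156) passed through KO alone. They were ZIC2, RGCC, RNASEH2B and MTRF1, which were called lower, and N4BP2L1, RFXAP and ABHD13, which were not. The sizes of their differences rest on such dim KO values. Without these 7, the other 149 members had a median of -0.35, and 29 were called lower. Within the members, the 39 dimmest (means from 6.28 to 7.74) had a median of -0.44, and the 39 brightest (9.42 to 14.02) one of -0.20. The 7 members that passed through WT values alone all lie among the 39 dimmest, and the median without them was not taken. The gap between these medians therefore cannot be read as an effect of brightness. Genes of other chromosomes in the same ranges of brightness had medians of -0.03 and -0.02.

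The other probe sets of the members, which gave none of the values above, were shifted in the same direction. Members had 311 further probe sets, of which 105 reached the threshold, for 70 members. All 311 had a median of -0.14 and 70.1% were lower in KO, against -0.01 and 52.4% for the other probe sets of bright genes elsewhere. The 105 had a median of -0.24, 87 of them were lower in KO, and 93 had the same sign as the probe set used. The 6095 such probe sets elsewhere had a median of -0.05. These probe sets were read on the same arrays and RNA, so they repeat the measurement of the transcript and are no further samples.

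The difference was not even along the chromosome. The members were cut in order into blocks of 15, with 21 in the last, and 8 of the 10 blocks had a median at least 0.3 below that of all genes of this brightness. The lowest block ran from RFXAP to KBTBD7, with a median of -0.59, all 15 members lower and 5 called. Its medians were -0.65 in KO 1 and -0.40 in KO 2, beside 0.35 for WT 1 minus WT 2. The blocks on either side of it, CDX2 to RFC3 and MTRF1 to ZC3H13, had medians of -0.34 and -0.38. The blocks from LRCH1 to DLEU1 and from RNASEH2B to PIBF1 both stood at -0.49. At the start of the order, MPHOSPH8 to MIPEP and SPATA13 to POLR1D read -0.36 and -0.37, with 14 and 12 of 15 members lower.

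The block from KLF5 to DNAJC3 differed from the others. Its median was 0.11, 11 of its 15 members were higher in KO, 3 were called higher and 1, DNAJC3, was called lower. The medians of this block were 0.10 in KO 1 and 0.29 in KO 2, beside 0.25 for WT 1 minus WT 2, so they were of the size of the spread between WT arrays. The next block, UGGT2 to BIVM, had a median of -0.15 with 14 of 15 members lower, and the last, ERCC5 to CHAMP1, had -0.39 with 17 of 21 lower and 1 called. Dim genes within the same spans had block medians between -0.16 and 0.05, the lowest from LRCH1 to DLEU1.

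A running median over 11 members was at least 0.3 below all genes of this brightness in separate stretches. The 22 members from EEF1AKMT1 to GTF3A had a median of -0.39, with 19 lower and 5 called. The 9 members that follow, from MTIF3 to KATNAL1, had a median of only -0.07, with 5 lower, 1 called lower (MTIF3) and 1 higher (CDX2). The longest interruption began between SUGT1 and PCDH17, the 98th and 99th members. From LRCH1 to SUGT1, 23 members had a median of -0.58, 21 were lower and 7 were called. The 34 members from HMGB1 to GPALPP1 had a median of -0.54, with 33 lower and 13 called. From PCDH17 to ATP11A, 47 members had a median of -0.06, with 28 lower, 5 called lower and 3 called higher. The longest run of one sign held 26 members, all lower, from HMGB1 to NAA16, with a median of -0.56. These limits were drawn from the same differences and describe them only.

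Differences of 2-fold or more downward were found for 9 members, and all 9 were called. ZIC2, a zinc finger transcription factor of the developing forebrain, read 5.67 and 6.37 in KO and 8.57 and 8.28 in WT. It was 5.31-fold lower (log2 difference -2.41, SE 0.25, limma adjusted p = 0.00789), although the gap between its KO arrays was wide and their mean of 6.02 lay below the brightness threshold, so the fold rests on values that could not be told from background. Its block as a whole stood at -0.15. WASF3, a regulator of actin assembly, read 7.39 and 7.45 in KO and 8.98 and 8.86 in WT, 2.83-fold lower (-1.50, SE 0.10, adjusted p = 0.00299). FRY, the human relative of the Drosophila furry gene, averaged 6.69 ± 0.08 in KO and 7.99 ± 0.01 in WT (SD, n = 2 each), and was 2.47-fold lower (-1.31, SE 0.11, limma adjusted p = 0.00499). The groups were well apart for all 3 genes. The difference of FRY was -0.46 and not called (adjusted p = 0.198) on a dimmer probe set that is less open to cross-hybridisation.

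ATP7B, the copper pump of hepatocytes, read 7.20 and 7.14 in KO and 8.39 and 8.32 in WT, 2.27-fold lower (-1.18, SE 0.10, adjusted p = 0.00533). With the mean over its probe sets ATP7B differed by -0.54 and was not called (adjusted p = 0.0541). Its other probe set was dim, with a mean of 3.59. INTS6, a subunit of the Integrator complex that processes small nuclear RNAs, read 7.87 and 7.79 in KO and 9.06 and 8.89 in WT (-1.14, SE 0.11, adjusted p = 0.00664). INTS6 and ATP7B lie 2 places apart in the order, and on these probe sets the arrays of each group were close together. A second bright INTS6 probe set read 6.83 and 7.08 in KO and 8.27 and 8.03 in WT, a difference of -1.20. The remaining genes with 2-fold differences were RGCC, a regulator of the cell cycle (-1.14), COG3 of the Golgi tethering complex (-1.08), MICU2, which gates mitochondrial calcium uptake (-1.03), and the long noncoding RNA DLEU1 (-1.01). RGCC, COG3 and DLEU1 were called through probe sets that may cross-hybridise. Dimmer sets gave -0.07 (adjusted p = 0.924) for RGCC and -0.48 (adjusted p = 0.359) for COG3, and DLEU1 had no other probe set. The KO arrays of RGCC, at 5.84 and 5.89, also lay below the brightness threshold.

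Members that were called higher were KLF5, GPC6, CDX2 and LMO7. KLF5, a transcription factor of proliferating epithelium, read 11.10 and 10.99 in KO and 9.60 and 9.61 in WT, 2.72-fold higher (log2 difference 1.45, SE 0.09, adjusted p = 0.00204). Its other probe set read 9.26 and 10.17 in KO and 9.07 and 8.05 in WT, higher in both KO arrays by a difference of 1.16 that was not called alone (adjusted p = 0.227). GPC6, a glypican of the cell surface, read 9.66 and 9.82 in KO and 9.18 and 8.86 in WT (0.72, SE 0.14, adjusted p = 0.0395). LMO7, a LIM domain protein of cell junctions, read 8.67 and 8.65 in KO and 8.02 and 8.18 in WT (0.56, SE 0.10, adjusted p = 0.038). These 3 genes lie in the same block, as does NDFIP2, which was not called (0.88, SE 0.29, limma adjusted p = 0.161). Further bright NDFIP2 probe sets gave 0.63 and 0.88, with adjusted p = 0.0393 and 0.0296 in a limma fit over probe sets. The NDFIP2 set used here had 0.194 in that fit. CDX2, an intestinal homeobox factor, lies apart from them in the third block, and read 8.09 and 8.13 in KO and 7.50 and 7.32 in WT (0.70, SE 0.12, adjusted p = 0.0274). Around CDX2 the block median was -0.34. The call of GPC6 ended after median centring (adjusted p = 0.0696), and those of CDX2 and LMO7 with the mean over their probe sets (adjusted p = 0.125 and 0.289). All other probe sets of CDX2 and LMO7 lay below the brightness threshold.

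RB1 was not called. It read 8.02 and 8.84 in KO and 9.59 and 8.53 in WT, a difference of -0.63 (SE 0.41, adjusted p = 0.502), and the WT arrays stood further apart than the group means. SUCLA2, a subunit of the citric acid cycle enzyme succinyl-CoA synthetase, also had WT arrays further apart than its group means, with 8.29 and 8.56 in KO and 9.42 and 8.59 in WT (-0.58, SE 0.27, adjusted p = 0.332). FOXO1, a transcription factor of gluconeogenesis, read 6.49 and 6.51 in KO and 6.99 and 6.62 in WT (-0.30, adjusted p = 0.398). LATS2, a kinase of the Hippo pathway, differed by 0.05 (SE 0.13), the lysosomal membrane protein LAMP1 by 0.01 (SE 0.08) and the secreted ligand GAS6 by 0.08 (SE 0.15). The chromatin protein HMGB1, with values of 12.82 and 12.99 in KO and 13.12 and 12.96 in WT, differed by -0.14 (SE 0.10). Members of the lowered span thus included genes whose difference lay within the spread of the arrays. IRS2, an adaptor of the insulin receptor, lay below the brightness threshold.

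Lists of members by role had medians between -0.51 and -0.12, beside -0.36 over all 156 members. Of all members 21.2% were called lower and 80.1% were lower by their means, where 3.94% and 47.8% of all genes were. Whether any list differed from the other members was not tested. On the list of mitochondria and metabolism, 22 of 23 members were lower, with a median of -0.51. Of these 23, 7 were called lower, 0 were called higher and 16 did not pass. The list also held COG3 of the Golgi and the membrane transporter ABCC4, so its counts are not those of mitochondrial genes alone. Besides ATP7B, MICU2 and COG3, the called genes included PCCA (-0.81, SE 0.16), a subunit of propionyl-CoA carboxylase. PCCA read 6.95 and 7.21 in KO and 8.06 and 7.72 in WT (adjusted p = 0.0469), and its call ended after median centring (adjusted p = 0.0591). With the mean over its probe sets PCCA differed by -0.24 (adjusted p = 0.425), where the other sets were dim (means 2.16 and 2.73). Of 15 genes of RNA processing and translation, 13 were lower, 5 were called lower and 10 did not pass, with a median of -0.39. Of the called genes, 4 serve translation in mitochondria. They were MRPS31 (-0.80, SE 0.09) and MRPL57 of the mitochondrial ribosome, the initiation factor MTIF3 and the release factor MTRF1 (-0.73, SE 0.14). The call of MTRF1 ended with the mean over its probe sets (-0.89, adjusted p = 0.155), where the other sets were dim. The other called gene was EXOSC8 of the RNA exosome (-0.71, SE 0.11). MRPL57, MTIF3 and EXOSC8 were called through probe sets that may cross-hybridise, and EXOSC8 had no other probe set. The 2 MRPS31 arrays of KO read 8.90 and 8.94, against 9.72 and 9.73 in WT.

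Of 22 members for the cell cycle, DNA repair and genome maintenance, 17 were lower, 7 were called lower, 0 were called higher and 15 did not pass, with a median of -0.40. After DLEU1 the largest falls were those of RNASEH2B, a subunit of the RNase that removes ribonucleotides from DNA (-0.85, SE 0.13), and DIAPH3, a formin of the cytoskeleton (-0.84, SE 0.10). RFC3, which loads the replication clamp, read 9.49 and 9.42 in KO and 9.98 and 10.00 in WT (-0.53, SE 0.09, adjusted p = 0.0249). The KO arrays of RNASEH2B, at 5.91 and 5.86 against 6.19 for the threshold, were dim. With the mean over their probe sets, RNASEH2B and DIAPH3 differed by -0.19 and -0.15 and were not called (adjusted p = 0.474 and 0.685). The other RNASEH2B sets were dim, whereas a further bright DIAPH3 set gave 0.26.

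Transcription factors and chromatin genes went both ways. Of 19, 16 were lower, 4 were called lower, 2 higher (KLF5 and CDX2) and 13 did not pass, with a median of -0.35. TSC22D1 was called lower through 1 probe set (-0.66, adjusted p = 0.0206), but another bright set gave 0.51, so its direction depended on the probe set. Of 20 ubiquitin and proteasome genes, 13 were lower, 1 was called lower (UBAC2, -0.78, SE 0.11), 1 higher (LMO7) and 18 did not pass, with a median of -0.30. UBAC2 was called through its only probe set, which may cross-hybridise. Among 14 signalling genes the median was -0.12, and only WASF3 and FRY were called lower, 0 were called higher and 12 did not pass. Of 17 genes for membrane traffic, cytoskeleton, adhesion and matrix, 3 were called lower, 1 higher (GPC6) and 13 did not pass, with a median of -0.23. The 3 were the chaperone genes DNAJC3 (-0.82, SE 0.16) and HSPH1 (-0.59, SE 0.11), and FNDC3A (-0.66, SE 0.10). The calls of DNAJC3 and HSPH1 ended after median centring (adjusted p = 0.054 and 0.0596), and that of FNDC3A with the mean over its probe sets (-0.37, adjusted p = 0.13). The other FNDC3A sets were dim. Without sets that may cross-hybridise HSPH1 differed by -0.38 (adjusted p = 0.563). The other 26 members were on no list. Of them 4 were called lower, 0 higher and 22 did not pass, with a median of -0.34.

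Promoter sequence was examined because neighbouring members were lower together over a long stretch, and it is shown for 3 of the 4 members with the largest falls and for KLF5, the largest rise. RefSeq promoters (GRCh38.p14, 250 bases before to 50 after the first listed start) were at hand for 138 members. Capitals mark CpG dinucleotides. KLF5 has 2 listed starts, and both are given. For the other genes the first listed start is given.
ZIC2 promoter, chr13:99981534-99981833, plus strand: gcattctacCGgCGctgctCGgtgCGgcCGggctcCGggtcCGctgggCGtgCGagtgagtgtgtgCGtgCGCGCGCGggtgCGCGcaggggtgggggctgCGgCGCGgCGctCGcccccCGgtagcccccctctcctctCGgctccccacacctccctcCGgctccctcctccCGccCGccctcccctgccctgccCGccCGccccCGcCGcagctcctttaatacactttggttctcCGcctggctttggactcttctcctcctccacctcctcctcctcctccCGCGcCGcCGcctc
WASF3 promoter, chr13:26557433-26557732, plus strand: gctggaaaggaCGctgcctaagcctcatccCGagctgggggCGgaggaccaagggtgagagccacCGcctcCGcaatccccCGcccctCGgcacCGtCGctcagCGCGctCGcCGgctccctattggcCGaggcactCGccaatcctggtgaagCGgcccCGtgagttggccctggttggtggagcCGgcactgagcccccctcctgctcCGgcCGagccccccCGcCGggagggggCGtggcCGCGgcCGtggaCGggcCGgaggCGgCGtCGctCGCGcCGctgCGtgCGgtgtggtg
ATP7B promoter, chr13:52012083-52012382, minus strand: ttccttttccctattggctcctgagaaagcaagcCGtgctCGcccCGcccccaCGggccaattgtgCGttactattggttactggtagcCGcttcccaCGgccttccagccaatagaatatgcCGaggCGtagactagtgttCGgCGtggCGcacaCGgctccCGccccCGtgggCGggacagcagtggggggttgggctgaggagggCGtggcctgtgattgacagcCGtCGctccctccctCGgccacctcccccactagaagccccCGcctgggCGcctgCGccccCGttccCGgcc
KLF5 first start promoter, chr13:73054726-73055025, plus strand: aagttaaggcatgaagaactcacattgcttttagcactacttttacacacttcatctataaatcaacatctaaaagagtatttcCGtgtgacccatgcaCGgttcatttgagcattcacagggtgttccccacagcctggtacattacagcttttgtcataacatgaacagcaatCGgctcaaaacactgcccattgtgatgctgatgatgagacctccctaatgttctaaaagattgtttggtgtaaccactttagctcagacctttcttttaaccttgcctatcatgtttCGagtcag
KLF5 second start promoter, chr13:73058755-73059054, plus strand: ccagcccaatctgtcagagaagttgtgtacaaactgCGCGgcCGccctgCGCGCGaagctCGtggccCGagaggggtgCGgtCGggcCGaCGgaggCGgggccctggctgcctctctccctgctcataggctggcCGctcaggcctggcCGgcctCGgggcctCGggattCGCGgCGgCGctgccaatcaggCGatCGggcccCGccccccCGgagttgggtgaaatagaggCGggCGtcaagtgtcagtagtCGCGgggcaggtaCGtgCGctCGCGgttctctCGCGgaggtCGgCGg

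The lowered members had CpG-rich promoters, as did the other bright genes. The median number of CpG in 300 bases was 27.5 over the members, 28 over those called lower and 28 over those not called, against 27 over the bright genes elsewhere and 14 over all promoters of the table. The promoters of ZIC2, WASF3 and ATP7B held 35, 36 and 25. Over the first starts of the 4 members called higher the median was 5, with 16 for CDX2, 6 for GPC6, 4 for KLF5 and 1 for LMO7. These counts depend on the start chosen. The second KLF5 start held 37, the 5 listed LMO7 starts held 1 to 40, and the 3 of ATP7B held 25, 29 and 3. A GC box (GGGCGG, either strand) was found in 65.2% of member promoters, 69.7% of those called lower and 0% of the 4 called higher, against 71.7% of the bright genes elsewhere and 44.6% of all promoters. This too depends on the start chosen, as the second listed starts of KLF5 and LMO7 each held a GC box. The only listed starts of CDX2 and GPC6 held none. A CCAAT box (CCAAT, either strand) was found in 31.2% of member promoters, 38% elsewhere and 35.7% of all, and a TATA box (TATAAA, either strand) in 7.97%, 5.08% and 12%. First listed starts of members called higher held a TATA box for KLF5 and GPC6. None of these motifs contains another. A match is a run of letters and no evidence of binding.

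Neighbouring members that start back to back on opposite strands were compared, since such pairs share a promoter region. There were 9 pairs with start sites within 1000 bases of each other. SKA3 and MRPL57 differed from WT by -0.40 and -0.48, and DCUN1D2 and SLC9D1 by -0.39 and -0.45. MZT1 and BORA stood at 0.11 and 0.09, and DIS3 and PIBF1 at -0.06 and 0.05. In the other pairs the genes were further apart, as with PROSER1 (-0.77, called) and NHLRC3 (-0.39, not called), or LNX2 (0.05) and POLR1D (-0.32). Further bright POLR1D probe sets gave -0.69 and -0.72, so the size of that gap depended on the probe set. The median gap between the genes of a pair was 0.20, and between all 155 neighbours in the order 0.30.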

How the data were processed

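RNA of 4 samples was amplified and labelled from the 3′ end of transcripts, per the labels' protocols. The deposited values are log2 expression values, made by the authors with RMA and affy per the submitters' processing notes. Versions are not stated there, nor which arrays were normalized together. RMA removes a change that most genes share. Depth has no counterpart on arrays, and the number of arrays limits precision.

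Of 54613 probe sets, 41091 had 1 gene symbol in the platform annotation, 1801 several and 11721 none. Of the first kind, 41037 matched RefSeq genes (GRCh38.p14) by Entrez identifier, and each of 19775 genes was represented by its brightest probe set. The files name no genome build, so RefSeq served for order and promoters only. KO was compared with WT in limma 3.58.1 in R 4.3.3 (lmFit, eBayes with an intensity trend, no filter), as a two-sided test adjusted over all genes by Benjamini-Hochberg. Residual degrees of freedom were 2, and the prior added 3.62. It was tested on simulated data. An exact permutation test of 2 against 2 cannot go below p = 0.333. Summaries used Python 3.11.15 with pandas 2.3.3 and NumPy 2.4.6.

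The members and lists were chosen with earlier results of these data known. Genes were named by rule: KDM6B, the 10 largest called changes in each direction, the 3 largest called members per list and direction (or the 2 brightest), block ends, 12 landmark genes, threshold neighbours, and members with probe sets called in opposite directions, of which there were 0. Genes named beyond it were chosen after their values were seen. Of the landmarks, 1 is not analysed here. Alternatives were the trend, normalization, probe sets, brightness, blocks, left-out arrays and a replicate block.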

Additional observations from a re-analysis of the deposited data

How the results depend on the processing

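The 33 of 156 members called lower became 14 with no trend of variance on intensity and 53 when the adjusted p could reach 0.10. With fewer members, the count was 17 of 139 when sets open to cross-hybridisation were dropped. At or above the 75th percentile of brightness it was 17 of 76. Leaving out 1 array gave 0 to 2. The 4 called higher became 1 with no trend, 2 with the mean over probe sets, 2 at the 75th percentile and 0 to 1 over the left-out arrays. All calls, 1399, became 783 with no trend, 851 with those sets dropped, 2236 with the wider threshold and 37 to 192 over the left-out arrays. Left-out arrays, fewer genes or a changed threshold are the alternatives' own construction, and for the trend the cause was not tested. The median over the members, -0.36, was -0.45 to -0.22 over the left-out arrays, -0.29 with the mean over probe sets, -0.29 at the 75th percentile and -0.07 with no brightness filter. With the left-out genes included, 5 of which were bright, it was -0.37 with 36 called lower. Repeated quantile normalization and median centring gave 34 and 30 called lower, of which 31 and 28 were among the 33.

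Same-numbered arrays deviated in opposite ways (correlation of replicate differences across genes -0.553), so numbers were not taken as pairing. The number as a replicate block left 3 members called lower, 1 higher and 175 calls in all. The crossed pairing, added after seeing the data, gave 78, 12 and 3662.

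Against the mean of WT, KO 1 alone gave -0.41 for SPATA13 to POLR1D, -0.27 for CDX2 to RFC3, -0.50 for MTRF1 to ZC3H13 and -0.33 for ERCC5 to CHAMP1. KO 2 alone gave -0.40 for RFXAP to KBTBD7, 0.29 for KLF5 to DNAJC3 and -0.28 for ERCC5 to CHAMP1. With the mean over probe sets the blocks SPATA13 to POLR1D, CDX2 to RFC3, MTRF1 to ZC3H13, RNASEH2B to PIBF1 and ERCC5 to CHAMP1 gave -0.32, -0.23, -0.15, -0.19 and -0.34. Blocks of 10 or 25 members and a running median left 60%, 66.7% and 60.3% at least 0.3 below, against 80%.

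Of 27 called genes named by the rule, 13 lost their call with no trend, 11 with the mean over probe sets and 5 after median centring. With the replicate block 23 lost it. With sets open to cross-hybridisation dropped, 14 kept their call, 8 lost it, 1 turned sign and the rest had no probe set left. Sign turns, given next, are not among the lost calls. Signs turned for TSC22D1 (0.05 with the mean over probe sets, 0.51 with those sets dropped), and for uncalled genes near 0. GAS6 gave -0.05 and LAMP1 -0.04 with the mean over probe sets, and LAMP1 -0.02 after median centring. Over the left-out arrays FLT1 ran from -0.03 to 0.24, GAS6 from -0.06 to 0.22, LAMP1 from -0.02 to 0.04, LATS2 from -0.07 to 0.17 and PIBF1 from -0.14 to 0.24.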
